A study of Mus musculus with 2 samples.

Results

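Of the 43346 genes with an Ensembl identifier in the deposited tables, 9 are described here: the homeobox genes Six2, Six4 and Six5, the 4 EYA genes Eya1, Eya2, Eya3 and Eya4, and the DACH genes Dach1 and Dach2. They were chosen by name, as genes of the network of SIX-family, EYA and DACH proteins, and each name matched 1 gene row in both libraries. The libraries were made from total RNA of mouse forebrain at embryonic day 10.5, strain B6NCrl, taken as healthy tissue with no treatment or engineered allele in the labels. For replicate 1, forebrains of 69 embryos were pooled and for replicate 2 those of 51 others, males and females together, and each library used 10 ng of RNA. These 2 pools form the only group, so the values below compare genes and transcripts within the same tissue. A two-sided exact sign-flip test over 2 libraries cannot go below p = 0.5, and no p is given; the spread between the pools also includes any technical difference between them.

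SIX-family proteins bind DNA through a homeodomain. A neighbouring SIX-type domain recruits EYA proteins, which activate transcription with their partner and carry a tyrosine phosphatase domain. DACH proteins are related to the SKI corepressors and can act in the same complexes, often downstream of PAX factors. The network was first worked out in the fly eye and is known in the mouse from the cranial placodes, the thickenings of head ectoderm that give rise to the lens, the olfactory epithelium, the inner ear and sensory ganglia, and from muscle, kidney and head mesenchyme. In the early forebrain, Six3 and Six6 act in the eye field, and Dach1 is known from cortical progenitors.

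The tables held 41537295 expected counts on Ensembl genes in replicate 1 and 38012402 in replicate 2, of which the 9 genes took 9108 and 8590. TPM is the unit of level used here, a share of all transcripts after division of the reads by transcript length. Forebrain markers were present (6 of 6 at 1 TPM or more in both libraries, summing to 307 and 306 TPM), while none of 5 HOX genes of hindbrain and spinal cord was detected, with Hoxa3 and Hoxb3 at 0. Markers of other cells that could carry these genes were also present: 10 of 10 head mesenchyme genes (195 and 209 TPM in sum), 6 of 6 surface ectoderm genes (106 and 101 TPM) and 5 of 7 cranial placode genes (28.2 and 27.6 TPM). Neurog1 alone made up 15.9 and 11.7 TPM of the placode sums, and Foxi3 and Irx1 were under 1 TPM. All 3 olfactory placode genes were detected (116 and 118 TPM), but most of that sum was Lhx2, also on the forebrain list, at 91.7 and 98.3 TPM. Of the other olfactory placode genes, Sp8 was at 17.1 and 14.4 TPM and Ebf2 at 7.71 and 5.21 TPM. Whether the genes of the 2 placode lists were expressed in placode cells or in other cells of the tissue was not tested. Of 5 lens genes only Maf passed the limit (3.46 and 3.48 TPM in sum for the list), and none of 6 head muscle genes did (1.57 and 1.40 TPM in sum), with Tcf21 at 0. Also present were 5 of 5 neural progenitor genes (1177 and 1153 TPM), 4 of 4 endothelial genes (66.3 and 68.5 TPM), 3 of 3 macrophage genes (27.4 and 26.6 TPM) and 2 of 4 genes of migrating neural crest (31.4 and 29.4 TPM), with Sox10 and Foxd3 under 1 TPM. For comparison, 57.3% of all protein-coding Ensembl genes passed the same limit. In bulk tissue, fewer cells of a type cannot be told apart from less RNA per cell, so the levels below are averages over all these cells. The part of each cell type in them was not tested.

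All 9 genes were detected at 1 TPM or more in both libraries, against 57.3% of the 21474 protein-coding Ensembl genes and 32.4% of all 43346 Ensembl genes, noncoding genes and pseudogenes included. Their median level was 10.8 ± 2.11 TPM (SD of the 2 libraries, n = 2), below the median of 17.1 ± 0.141 TPM over the 14032 detected genes. In order of mean TPM, Eya3 stood first, followed by Eya2, Eya1, Dach1, Dach2, Six2, Six4, Six5 and Eya4, from the upper 35.0% to the upper 80.2% of detected genes. In 5 of 8 pairs of neighbours in this order, the same gene was higher in both libraries by more than the SD of the difference. The order came from the same 2 libraries, so this count is no test of it. Among the 5 was Six4 over Six5 by only 0.04 on the log2 scale, and several of these pairs turned on other length scales, as given below. Eya2 and Eya1, Dach1 and Dach2, and Dach2 and Six2 did not differ beyond their spread.

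**Figure D1:**
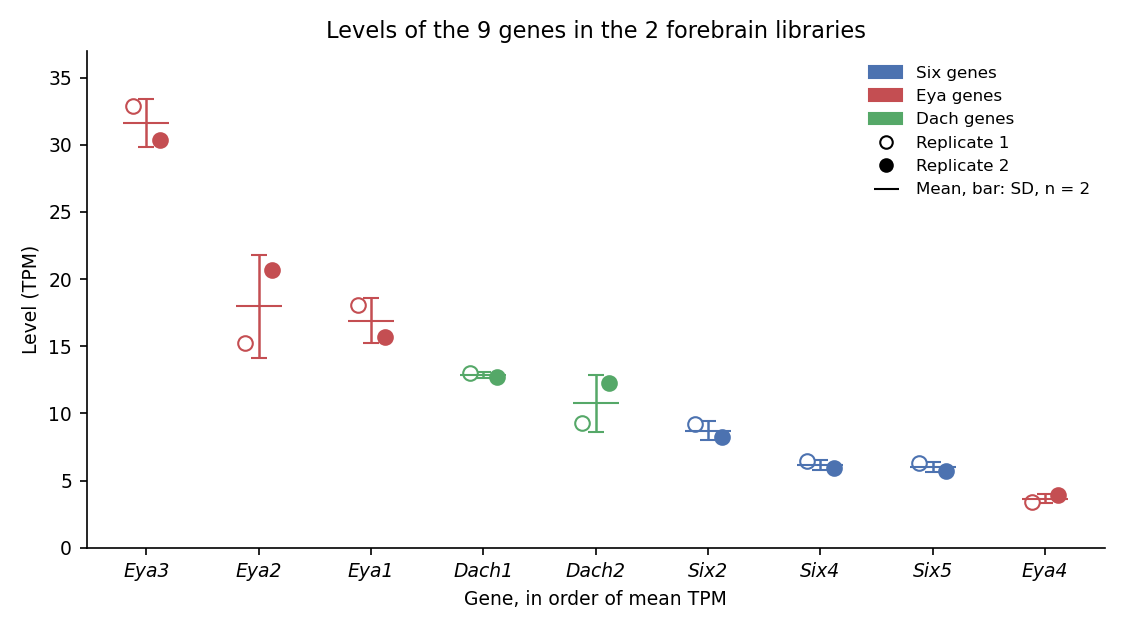
Level in TPM (vertical axis, linear from 0) of each of the 9 genes in replicate 1 (open circles) and replicate 2 (filled circles), with the mean and SD (n = 2) and colours for the gene families. Eya3 lies at 32.9 and 30.3 TPM in replicates 1 and 2, Eya4 is the lowest at 3.43 and 3.90 TPM, and the libraries lie farthest apart for Eya2.

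Summed over the genes of each family, the 4 Eya genes held 69.7 and 70.6 TPM in replicates 1 and 2, the 2 Dach genes 22.3 and 24.9 TPM, and the 3 Six-family genes 21.9 and 19.9 TPM. The Eya genes therefore held 61.2% of the 9 genes' summed TPM in each library. The Dach genes held 20.6 ± 1.42% and the Six-family genes 18.2 ± 1.43% (n = 2). Counted as reads with no division by length, the Eya share was 49.1 ± 1.04% and the Dach share 28.8 ± 1.06%. The Eya genes, the family with the most members, held the largest share on both scales, and the share itself moved with the division by length. Eya3 alone was at 32.9 and 30.3 TPM, and at 10.4 and 10.3 TPM with its longest listed transcript as length. The shares are sums over each family and not levels per gene.

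Six2, on chromosome 17 (chr17:85684277-85688274, minus strand, GRCm38), is known from nephron progenitors and from craniofacial mesenchyme. It held 515 expected counts in replicate 1 (95% Poisson interval 471 to 561, counting error only) and 416 in replicate 2 (377 to 458), or 9.21 and 8.25 TPM. All of its reads were assigned to the transcript Six2-202, which has 2 exons and a coding sequence of 296 codons. The other transcript, Six2-201, has as many codons and was at 0 in both libraries. Six2 was thus the highest of the 3 Six-family genes per length in each library, 0.49 ± 0.03 above Six4 on the log2(TPM + 0.1) scale.

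Six4, on chromosome 12 (chr12:73099609-73113456, minus strand), acts in muscle and sensory placodes. It had 1127 and 938 expected counts, more than Six2 or Six5, but its leading transcript is 6402 bases long, and its level per length was 6.43 and 5.93 TPM. Six4-201, with 775 codons, held 92.2% and 91.6% of the gene's TPM. The remaining 7.76% and 8.39% fell on Six4-202, whose annotated coding sequence has 518 codons. The transcript with the longer coding sequence was the main form in both libraries.

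Six5, on chromosome 7 (chr7:19094594-19098549, plus strand), lies next to Dmpk, the gene whose repeat expansion causes myotonic dystrophy. It had 506 and 416 expected counts, or 6.29 and 5.73 TPM, on its single annotated transcript of 719 codons. Six4 was above Six5 by 0.04 ± 0.01 on the log2 scale, in both libraries. The intervals deposited for their TPM, whose level is not stated, overlapped in each library (5.95 to 6.68 for Six4 and 5.65 to 6.71 for Six5 in replicate 1). Within that uncertainty the order of these 2 genes was not settled.

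Eya1, on chromosome 1 (chr1:14168954-14310235, minus strand), is the gene mutated in branchio-oto-renal syndrome and is needed for ear and kidney development. Its expected counts were 1620 and 1416, and its level 18.1 and 15.7 TPM (16.9 ± 1.68, n = 2). Its reads were spread over several forms. Eya1-201, with 591 codons, held 44.1% and 48.6%, and Eya1-203, with 587 codons, held 15.6% and 19.0%. Eya1-204, annotated as a retained intron, held 11.9% and 15.1%. Transcripts with a complete coding sequence together made up 63.5% and 71.1% of its TPM, and 82.4% and 82.9% of its expected counts. Eya1-206, a fragment of 664 bases, took 8.63% in replicate 1 and 0.04% in replicate 2, on 24.4 and 0.08 estimated counts. With these shares the mean effective length of Eya1 was 3233 bases in replicate 1 and 3609 in replicate 2. The log2 ratio of replicate 2 to replicate 1 was -0.20 in TPM and -0.06 in scaled counts, so most of the lower TPM of Eya1 in replicate 2 is not seen in its counts.

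Eya2, on chromosome 2 (chr2:165595032-165771727, plus strand), is known from cranial placodes and somites. It had 957 expected counts and 15.3 TPM in replicate 1, and 1182 counts and 20.7 TPM in replicate 2. Eya2 was lower than Eya1 in replicate 1 and higher in replicate 2, so their means do not order them. Eya2-202, which starts at the upstream site, base 165595032, held 94.7% and 96.5% of the gene's TPM. Eya2-201 codes for the same number of codons, 532, from a site 60266 bases downstream, and was at 0 in both libraries. Counts on the downstream site came from the noncoding Eya2-206 alone, 14.2 and 9.51 of them. Eya2 was the Eya gene with the most of its level in a single form.

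Eya3, on chromosome 4 (chr4:132638987-132724765, plus strand), encodes an EYA protein also known for dephosphorylating histone H2AX in the DNA damage response. It had 1462 and 1305 expected counts, fewer than Eya1, and 32.9 and 30.3 TPM, the highest of the 9 genes. In the authors' estimate, the transcripts that held its reads differed from those of the other genes in what they were annotated to encode. The leading form, Eya3-212, held 45.9% and 52.0% of the TPM and has no annotated coding sequence. Eya3-206, a noncoding model of 655 bases, held 27.7% and 22.8%, and Eya3-207, whose coding sequence is incomplete, 15.1% in each library. The 4 transcripts with a complete coding sequence together held 4.60% and 4.86%, or 1.51 and 1.47 TPM, on 14.5% and 14.2% of the expected counts. Eya3-212 differs from the main coding form, Eya3-203 (526 codons), apart from a slightly different start, at its last exon, 857 bases long against 3487 bases, and around exon 5. There Eya3-212 lacks the last 40 of the 67 bases of the exon and the whole next exon of 137 bases. Together these missing bases make whole codons. Whether Eya3-212 is translated was not tested, so its lack of a coding sequence is a matter of annotation only. The junctions after exon 5 are shown because they separate the leading form from the main coding form; lower case is the end of exon 5 and capitals the start of the exon joined to it.
Eya3-212 junction, chr4:132670215-132689705, plus strand: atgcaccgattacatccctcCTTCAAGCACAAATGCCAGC
Eya3-203 junction, chr4:132670255-132672896, plus strand: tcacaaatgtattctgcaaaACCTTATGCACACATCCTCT
The coordinates are the last base of exon 5 and the first base of the joined exon, and the bases come from the GENCODE M21 transcripts on GRCm38. The files give shares per transcript and no reads per junction, so neither junction was counted by itself, and from these shares the isoforms used in the tissue and the assignment of reads among overlapping models cannot be told apart.

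**Figure D2:**
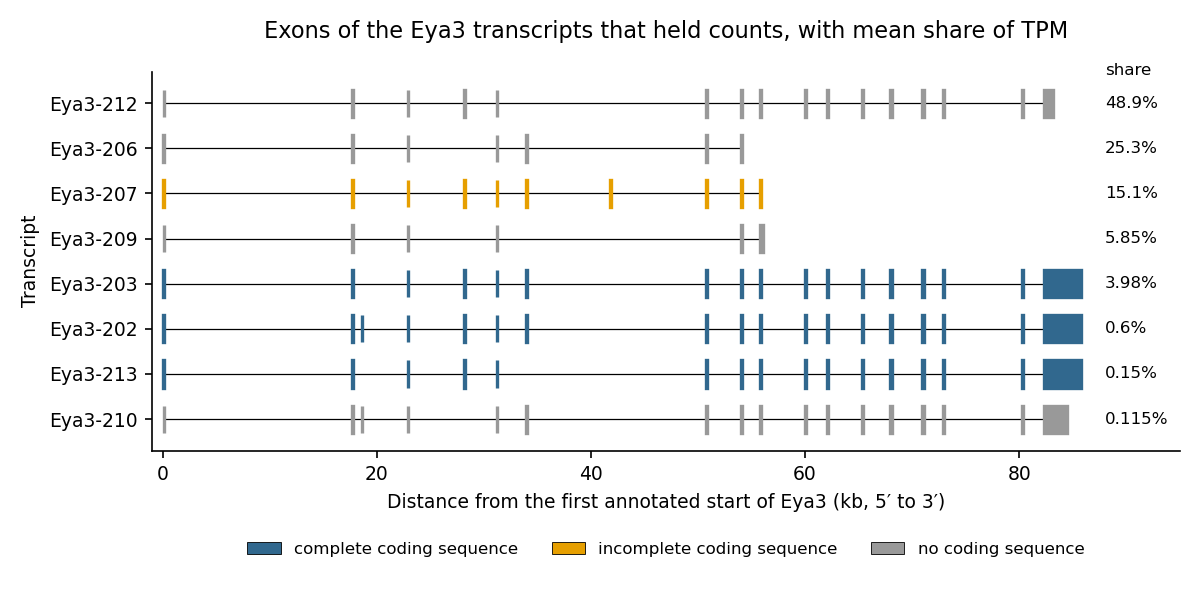
Exons (boxes, to scale along the horizontal axis in kb from the first annotated start, each outlined so that short exons remain visible) of the 8 Eya3 transcripts that held counts, coloured by annotated coding sequence, with the mean share of Eya3 TPM at the right. The 3 forms with a complete coding sequence share the long last exon and hold 3.98%, 0.6% and 0.15%, while Eya3-206, Eya3-207 and Eya3-209 end before the 3′ part of the gene.

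Eya4, on chromosome 10 (chr10:23102963-23350786, minus strand), is known from inherited hearing loss and cardiomyopathy. It was the lowest of the 9 genes, with 369 and 381 expected counts and 3.43 and 3.90 TPM. Six5, the next gene in the order, was above it by 0.70 ± 0.22 on the log2 scale. Both annotated forms have 616 codons and use alternative versions of exon 18, each 101 bases long and entirely coding. Eya4-202 held 82.6% and 86.8% of the TPM and Eya4-201 the remaining 17.4% and 13.2%. The 2 exons lie next to each other in the genome and are identical at 71 of 101 positions (70.3%). They are shown because the coding sequences of the forms differ in them. Capitals mark the 30 positions at which the 2 exons differ.
Eya4-202 exon 18, chr10:23109832-23109932, minus strand: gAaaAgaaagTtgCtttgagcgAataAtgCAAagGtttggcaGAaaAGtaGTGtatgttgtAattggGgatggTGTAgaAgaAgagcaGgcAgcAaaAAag
Eya4-201 exon 18, chr10:23109971-23110071, minus strand: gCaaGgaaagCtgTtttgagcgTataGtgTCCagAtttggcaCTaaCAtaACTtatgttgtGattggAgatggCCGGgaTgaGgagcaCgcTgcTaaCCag
Eya4-202 is 4091 bases long in the deposited tables and 5304 bases in the annotation used for its exons, so its model was revised between them, and whether exon 18 was the same in the model used for the shares is not shown by the tables. The lengths of the other 45 of 46 transcripts of the 9 genes were equal in both. Eya4-201 is 3488 bases long, shorter than Eya4-202 in either. The forms therefore differ outside exon 18 as well, and their shares do not measure the choice of exon 18 alone.

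Dach1, on chromosome 14 (chr14:97786853-98169765, minus strand), encodes a corepressor-binding protein of the SKI-related class and was at 13.0 and 12.7 TPM. Its 1791 and 1576 expected counts were the most of any of the 9 genes, and in TPM the libraries differed least for it (12.9 ± 0.247 TPM, n = 2). By scaled counts they differed least for Eya3 (0.981-fold in replicate 2). Dach1-201, with 699 codons, held 90.6% and 85.4% of the TPM. Dach1-202, with 751 codons, held 8.12% in replicate 1 and 14.0% in replicate 2. It has 1 exon more, the exon number 4 of 12, and it adds 52 codons in frame. That cassette exon is shown in lower case throughout because its inclusion is the whole difference between the 2 coding forms.
Dach1 cassette exon, chr14:97916393-97916548, minus strand: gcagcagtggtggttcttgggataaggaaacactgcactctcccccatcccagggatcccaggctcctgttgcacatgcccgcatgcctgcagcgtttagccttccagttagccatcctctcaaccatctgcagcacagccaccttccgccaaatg
It is 156 bases long with a GC content of 57.7%. The share of Dach1-202 was higher in replicate 2, on 149.9 and 227 estimated counts. Those counts are estimated for the whole transcript of 5219 bases, most of which both coding forms share. Reads on the exon or its junctions are not given, so inclusion of the exon was not counted by itself.

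Dach2, the X-linked paralogue of Dach1 (chrX:113297510-113836386, plus strand), had 761 expected counts and 9.27 TPM in replicate 1, and 960 counts and 12.3 TPM in replicate 2. It was lower than Dach1 in both libraries, but by 0.49 and 0.05 on the log2 scale, so the difference did not exceed its spread. Dach2-201, with 634 codons, held 64.8% and 56.0% of the TPM, and Dach2-205, with 606 codons and a longer transcript of 5155 bases, 16.2% and 23.1%. By start site, 3 transcripts beginning between bases 113298252 and 113298257 held 84.8% and 84.7%. Another 3, beginning between bases 113297510 and 113297576, held 10.6% and 13.2% on 59.5 and 88.2 estimated counts, and their coding sequences are shorter, from 445 to 500 codons. The downstream start was the main one in both libraries. Both promoters, each from 250 bases before to 50 bases after the RefSeq start (GRCm38.p6), are shown because the transcript shares separate these starts. Capitals mark matches to the TATA box letters TATAAA, the CCAAT box letters CCAAT and the GC box letters GGGCGG, searched on both strands.
Dach2 upstream promoter, chrX:113297260-113297559, plus strand: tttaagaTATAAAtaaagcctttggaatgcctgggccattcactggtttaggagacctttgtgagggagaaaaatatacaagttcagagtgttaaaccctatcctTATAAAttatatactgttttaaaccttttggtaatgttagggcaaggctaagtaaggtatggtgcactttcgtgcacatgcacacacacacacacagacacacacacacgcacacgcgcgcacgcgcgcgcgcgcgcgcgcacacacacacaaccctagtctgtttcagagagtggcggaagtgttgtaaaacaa
Dach2 downstream promoter, chrX:113298006-113298305, plus strand: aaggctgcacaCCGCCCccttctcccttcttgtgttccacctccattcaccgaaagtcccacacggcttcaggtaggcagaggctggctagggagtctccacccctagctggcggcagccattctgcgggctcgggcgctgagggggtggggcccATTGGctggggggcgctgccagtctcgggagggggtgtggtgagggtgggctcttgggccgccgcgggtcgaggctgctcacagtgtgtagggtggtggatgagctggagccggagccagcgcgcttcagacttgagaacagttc
The upstream promoter has 2 TATAAA matches, no match to the other motifs and a GC content of 45.3%. The downstream promoter has no TATAAA match, 1 CCAAT match, 1 GGGCGG match and a GC content of 66.3%. Of 32851 RefSeq promoters of the same length, 13.6% hold TATAAA, 37.4% CCAAT and 35.7% GGGCGG, and the median GC content is 52.7%. A match is a description of letters and not evidence of binding.

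RefSeq promoters were listed for 7 of the 9 genes, 10 promoters in all, with Eya1 and Eya2 missing. Apart from the upstream Dach2 promoter, their GC content ran from 54.0% (Dach1) to 69.3% (Eya4), each above the median of all promoters. GGGCGG was found 3 times in each of the Six2, Six5 and Eya3 promoters. The MEF3 motif TCAGGTTTC, an element known to be bound by SIX-family proteins in muscle genes, was found in 1 of the 10 and in 0.429% of all promoters. That match lies in 1 of the 2 listed Six4 promoters, the one for the start at base 73113245, and the promoter for the start at base 73113425 holds none. Both Six4 transcripts that held its counts start between bases 73113425 and 73113456, upstream on the minus strand. Neither starts at base 73113245, so the match is not in the promoter of a start seen in these data. These matches were not set against the levels.

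Over all 9 genes, the leading transcript was the same in both libraries for 9 of 9, and it held over 80% of the gene's TPM in both for 6 of 9: Six2, Six4, Six5, Eya2, Eya4 and Dach1. Of their 46 transcripts, 10 had no counts in either library. Six2, Six4, Six5 and Eya4 held 100% of their TPM in transcripts with a complete coding sequence, Dach1 99.1 ± 0.523%, Eya2 95.6 ± 1.27%, Dach2 91.9 ± 0.460%, Eya1 67.3 ± 5.42% and Eya3 4.73 ± 0.184% (n = 2 each). Eya3 was the lowest on this measure, and Eya1 the next. The shares are the authors' estimates over the annotated transcripts, and the coding classes are those of GENCODE M21, a later release than the one used for the shares.

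**Figure D3:**
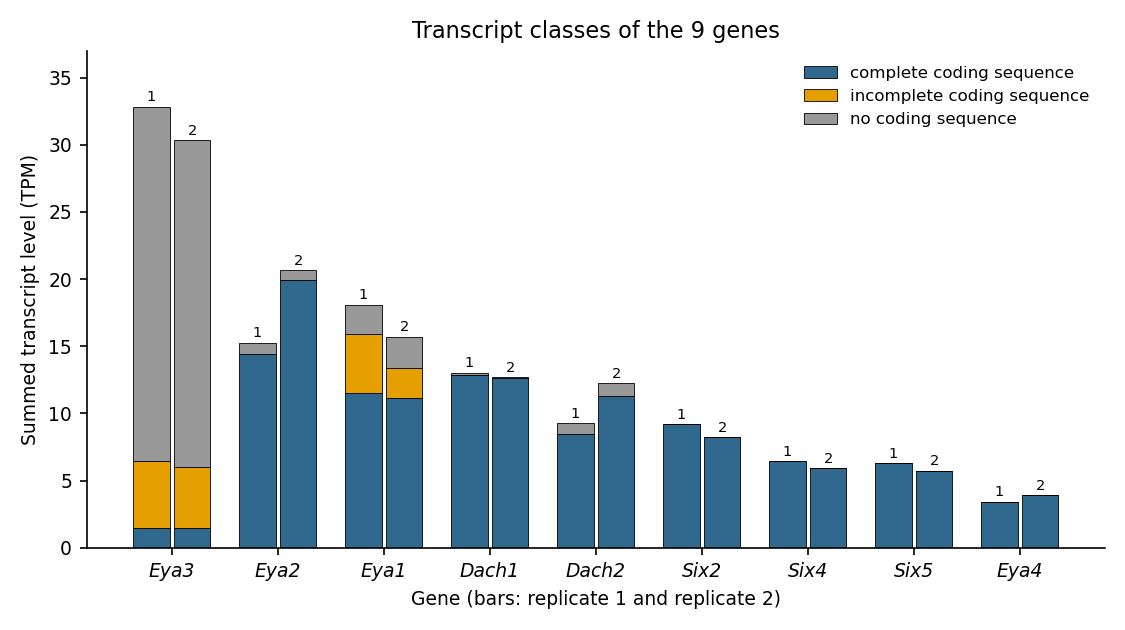
Summed TPM (vertical axis, linear from 0) of the transcripts with complete, incomplete and no annotated coding sequence for each gene, in replicate 1 (left bar) and replicate 2 (right bar). Most of the Eya3 bar is transcripts without an annotated coding sequence, at 26.4 and 24.3 TPM. The bars of Six2, Six4, Six5, Eya4 and Dach1 are almost wholly of complete annotated coding sequence.

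Because TPM divides by the length of the transcripts that hold the reads, the order of the genes was computed on other scales. The short forms that lead in Eya3 gave it a mean length of 1824 bases in replicate 2, while its longest listed transcript has 5186 bases. With each gene divided by its longest listed transcript, a setting chosen after the values were seen, Eya3 was at 10.4 and 10.3 TPM, and Eya2 stood first at 14.6 and 20.1 TPM. Eya3 was then below Eya2 by 0.72 on the log2 scale and had rank 4. By TPM of complete coding transcripts alone, Eya2 was first at 17.2 ± 3.89 TPM, then Dach1 at 12.7 ± 0.177 and Eya1 at 11.3 ± 0.219, and Eya3 was last. With no division by length, Dach1 came first at 42.3 ± 1.17 CPM (counts scaled to library size) ahead of Eya1 at 38.1 ± 1.24. Eya4 stayed last or next to last on all 4 scales.

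**Figure D4:**
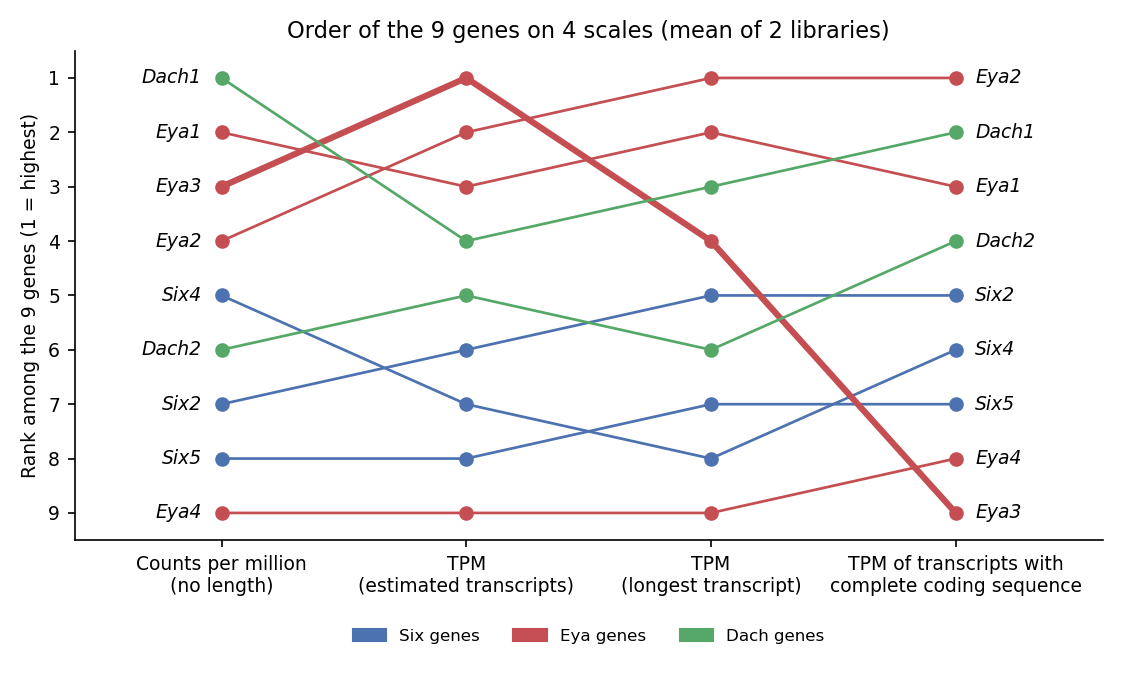
Rank of the 9 genes (vertical axis, 1 is highest) by mean of 2 libraries on 4 scales from left to right: CPM, TPM, TPM with the longest listed transcript as length, and TPM of complete coding transcripts. The thick line is Eya3, which runs from rank 3 to ranks 1, 4 and 9, while Eya4 has rank 9, 9, 9 and 8.

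Between the 2 pools, none of the 9 genes was past 2-fold, against 0.585% of the 13842 genes whose mean count reached 50. Dach2 was 1.39-fold higher in replicate 2 (95% counting interval 1.26 to 1.53, TMM-scaled expected counts), and Eya2 1.36-fold (1.25 to 1.48). Of those genes, 5.0% and 5.95% lay as far apart or farther, so these 2 genes lay farther apart than most. Six4 was slightly lower in replicate 2 (0.915-fold, 0.838 to 0.999), but 35.3% of those genes lay as far apart or farther. The intervals of the other 6 genes included 1. Six2, Six4 and Six5 all had ratios under 1, from 0.888 for Six2 to 0.915 for Six4. Of the genes whose mean count reached 50, 25.6% lay as far apart as Six2 or farther, and 30.9% as far as Six5 or farther. The share of all genes under 1 is not given here, so their common direction is only a description. Scaling by spike-in counts shifted every gene alike, moved the median of all genes to 0.17 on the log2 scale, and brought Six4, Six5, Eya1, Eya3 and Dach1 from below 0 to between 0.02 (Six5) and 0.14 (Eya3). Relative to the median, Six2, Six4 and Six5 were at -0.17, -0.13 and -0.15 and Eya2 and Dach2 at 0.44 and 0.47 under either scaling.

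Several marker lists also differed in summed level between the pools, with no test possible over 2 libraries. The share of all genes higher in replicate 2 is not given here. The numbers of genes higher or lower below therefore have no background and only describe each list. The median log2 ratio of all genes between the pools was 0.002 in TMM-scaled counts. Optic genes, a list added after the values were seen, summed to 22.7 TPM in replicate 1 and 54.0 TPM in replicate 2. Of these, 9 of 9 were higher in replicate 2, which carries no weight as a count because of that choice. Among the optic genes, Pmel of the melanosome was at 5.82 and 20.8 TPM and the eye field gene Rax at 3.47 and 9.79 TPM. Six6, a SIX-family gene of the optic vesicle and pituitary, was at 2.71 and 6.85 TPM. Neuron genes summed to 397 and 314 TPM with 4 of 4 lower in replicate 2, and erythroid genes to 12695 and 9303 TPM with 3 of 3 lower. Cranial placode genes summed to 28.2 and 27.6 TPM, with 6 of 7 higher in replicate 2, among them Gata3 at 3.59 and 6.21 TPM, and Neurog1, the highest of the list, lower at 15.9 and 11.7 TPM. Head mesenchyme genes summed to 195 and 209 TPM, with 6 of 10 higher in replicate 2. The part of these cells in the higher Eya2 and Dach2 of replicate 2 was not tested.

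**Figure D5:**
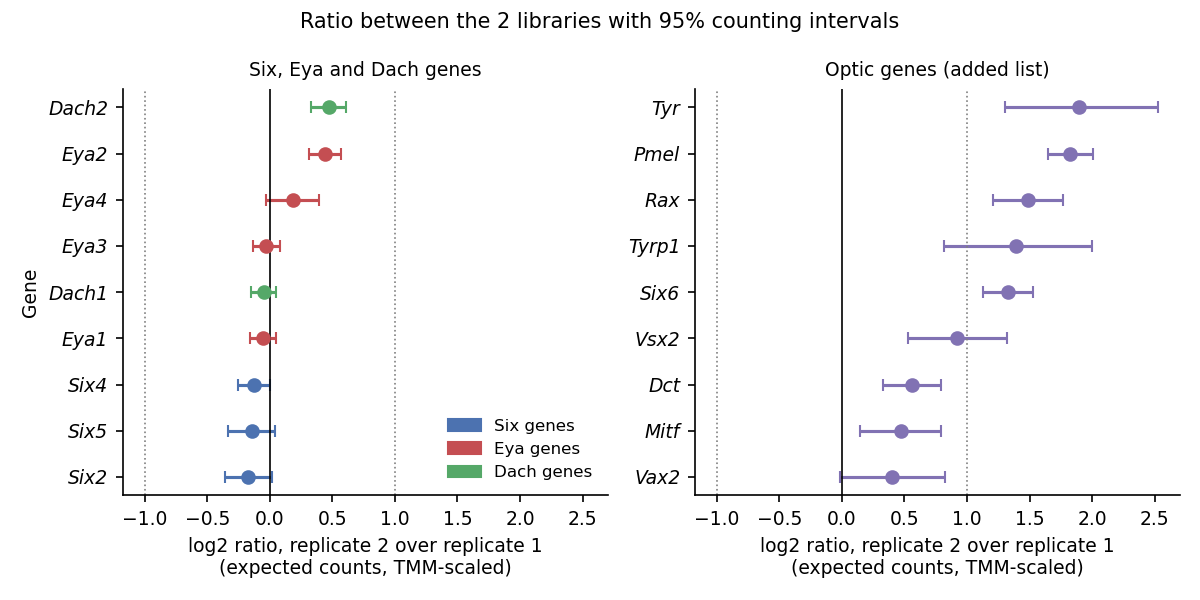
Ratio of replicate 2 to replicate 1 on the log2 scale (horizontal axis) with 95% exact binomial counting intervals, for the 9 genes at the left and for 9 optic genes, listed after their values were seen, at the right; dotted lines mark 2-fold. Dach2 (0.47) and Eya2 (0.44) lie to the right of 0 and inside the 2-fold lines, and 5 optic genes lie beyond 2-fold.

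Among the other SIX-family genes, Six3, a factor of the anterior neural plate and eye, was at 11.1 and 13.2 TPM. Per length it was above Six2, Six4 and Six5 in each library. The antisense gene Six3os1 was at 39.7 and 42.3 TPM, and since the sources used here do not give the strand used in counting, its reads and those of Six3 cannot be told apart. The list of 3 matched genes had a median of 12.15 ± 1.499 TPM, beside 10.8 ± 2.11 TPM for the 9 genes. PAX genes, which act upstream of or beside the network, were led by Pax6 at 66.4 ± 2.08 TPM, with Pax3 at 10.7 ± 0.431 and Pax7 at 1.95 ± 0.0778, and Pax2 (0.59 ± 0.156) and Pax8 (0.42 ± 0.0707) were under 1 TPM (n = 2 each). Pax2 and Pax8 are the PAX genes of the otic placode and kidney. In all, 3 of 5 PAX genes were detected, near the 57.3% of all protein-coding genes.

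The listed partners of the DACH and EYA proteins were all detected, beside 57.3% of all protein-coding genes. The 7 DACH corepressor partners had a median of 21.1 ± 0.884 TPM, led by the histone deacetylase gene Hdac3 (153 ± 1.69), the corepressor gene Ncor1 (108 ± 2.05), Sin3a (46.1 ± 0.728) and Skil (21.1 ± 0.884). The 5 genes of the EYA list had a median of 47.9 ± 0.339 TPM. Among them were H2afx, whose product H2AX is a phosphatase substrate of EYA proteins, at 448 ± 5.30 TPM, and Baz1b, a kinase of the same tyrosine, at 47.9 ± 0.339. Gnai2, a G protein subunit described as binding EYA2, was at 449.9 ± 1.77 TPM and Mdc1, a reader of phosphorylated H2AX, at 17.9 ± 0.983. These genes serve many other complexes as well.

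Of the genes described as targets of SIX-family or EYA proteins in other tissues, 5 of 8 were detected, near the 57.3% of all protein-coding genes. Their median was 7.89 ± 0.0389 TPM. The cell cycle gene Ccnd1 (201 ± 6.84), the membrane linker gene Ezr (93.0 ± 7.15), the transcription factor gene Myc (44.0 ± 2.71) and the zinc finger gene Sall1 (10.4 ± 0.0283) were the highest. The muscle gene Myog (0 and 0.03 TPM), the kidney signal gene Gdnf (0.08 and 0.13 TPM) and Slc8a1 (0.43 and 0.97 TPM) stayed under 1 TPM. Myog and Gdnf, described as targets in muscle and kidney, were under 1 TPM here while Six2, Six4, Eya1 and Eya2 were detected. A link between these levels was not tested.

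Several of these genes sit in clusters or beside genes of other function, and the levels of neighbours were compared per length. Six2 lies 54.97 kb from Six3, on the opposite strand, and was below it by 0.47 ± 0.29 on the log2 scale, and below its other neighbour Srbd1 by 1.00 ± 0.10. Six4 lies 10.26 kb from Mnat1, on the opposite strand, and was below it by 2.31 ± 0.14 (Mnat1 was at 30.3 and 32.0 TPM). Six5 lies 0.772 kb from Dmpk, on the same strand, and was below it by 0.30 ± 0.01 (Dmpk was at 7.70 and 7.11 TPM), and above its other neighbour Gm4969 by 2.61 ± 0.12. Without division by length Six5 was above Dmpk by 1.23, so the order of Six5 and Dmpk turned with the scale. On that scale Six4 was below Mnat1 by only 0.24, so the size of these differences also depends on the division by length.

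The Eya and Dach genes were set beside their neighbours in the same way. All of them were detected, which 57.3% of protein-coding genes were, so standing above a neighbour is not read as a trait of these genes. Eya3 lies 0.131 kb from Xkr8, on the opposite strand, and was above it by 2.97 ± 0.21, with Xkr8 at 3.70 and 4.22 TPM, while its other neighbour Ptafr was at 0.28 and 0.24 TPM. Eya1 stands between Xkr9, listed at 0 in both libraries, and Msc, at 0.20 and 0.12 TPM, 467 kb and 443 kb away. Eya4 lies between Tcf21, also at 0, and the ribosomal protein gene Rps12, which at 234 and 209 TPM was above Eya4 by more than any other neighbour was above one of the 9 genes (log2 difference of Eya4 to Rps12 -5.88 ± 0.24). Without division by length that difference was -2.53. Eya2 was above Slc2a10 by 1.98 ± 0.04 and below Zmynd8, which is on the opposite strand 12.4 kb away, by 1.56 ± 0.23. Dach1 was above Klhl1 (0.08 and 0.07 TPM) and, by 1.74 ± 0.28, above Rpl36a-ps1. Rpl36a-ps1 held only 20.4 and 23.7 expected counts, and without division by length Dach1 was above it by 6.02. Dach2 was above Klhl4 by 1.65 ± 0.16 and, at a log2 difference of -0.01 ± 0.16, did not differ beyond the spread from Chm, the gene of choroideremia. The posterior SD deposited for the count was 0 in both libraries for 9 of 9 genes, which leaves no uncertainty from reads shared with other genes in the authors' estimate.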

How the data were processed

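Total RNA-seq of 2 forebrain pools was quantified by the authors on mm10 with genome annotation M4, per the notes deposited with the samples; the sources used here do not give the aligner, the quantification tool, their versions, the priming or the strand used in counting. The labels' protocols name mirVana extraction, a size range above 200 and added spike-ins. The deposited expected counts are reads estimated for each gene and transcript, with no normalization. The TPM values deposited per gene are shares of all rows after division by length, with spike-ins included, and the posterior mean TPM is a second deposited estimate. The deposited FPKM values are per length and library size. The percent share of each transcript in its gene (IsoPct) is the authors' estimate. The deposited effective length of the 9 genes equals length minus 99, which raises the TPM of short transcripts.

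Members and lists were chosen with earlier results of these data known. Named genes are the 9 members, the nearest protein-coding gene on each side, and up to 4 highest and up to 4 undetected genes (under 1 TPM in both libraries) of each list; Gata3, Neurog1, Pmel, Rax and other genes named from marker or optic lists were chosen after their values were seen. Some genes that this rule names are not reported here. Symbols matched 42462 of 43346 identifiers, and coordinates and exons are those of GENCODE M21 on GRCm38. Differences used log2(TPM + 0.1). Library ratios used expected counts over TMM-scaled totals (edgeR 4.0.16, R 4.3.3) with 95% exact binomial intervals, which cover counting error only; past 2-fold was counted over genes whose mean count reached 50. Values were also recomputed with DESeq2 1.42.0 size factors, upper quartile, total and spike-in scaling, other units, other pseudocounts and limits, and without each library. The rest used numpy 2.4.6, pandas 2.3.3, scipy 1.17.1 and matplotlib 3.10.9 in Python 3.11.15. The ratio step was tested on simulated data.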

Additional observations from a re-analysis of the deposited data

How the results depend on the processing

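Of 333 values recomputed for 109 results under other settings, 242 moved by less than the spread, 85 moved by more and 6, whose first value had exceeded its spread or counting interval, turned in direction. Among log2 differences 7 more, within that spread at first, changed sign: Eya2 minus Eya1 by CPM (-0.51) and without replicate 2, Dach2 minus Six2 with the longest transcript, and Six5, Eya1, Eya3 and Dach1 between the libraries with spike-in scaling (0.02 to 0.14). With CPM in place of TPM, Eya1 minus Dach1 turned to -0.15, Six2 minus Six4 to -1.14 and Six5 against Dmpk to 1.23 (log2), and the shares of the summed level became 22.1% for the Six-family, 49.1% for the Eya and 28.8% for the Dach genes. By posterior mean TPM the Eya share was 62.1%. With the longest listed transcript as length, a setting added after the data were seen, Eya3 minus Eya2 turned to -0.72 and Six4 minus Six5 to -0.043, and Dach2 minus Six2 was -0.43. Both settings change the division by length. Spike-in scaling, which adds the same amount to every gene, put Six4 at 0.038 between the libraries, and relative to the median gene Six4 was at -0.13 with and without it. The share of genes past 2-fold was 3.28% at a mean count of 10 or more and 19.6% at any count above 0. By expected counts, complete coding transcripts made up 14.4% of Eya3. All 9 genes were detected at 0.5, 1 and 2 TPM and at 10 expected counts, and none was past 2-fold under any scaling. Leaving out replicate 1 or 2 gave Eya2 minus Eya1 as 0.39 or -0.25. No paired analysis was possible because there is a single group. Depth limits Eya4 most, with 369 and 381 counts, and transcripts with few counts, such as Eya1-206.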
